A study of Mus musculus with 15 samples.

Results

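Integrins, the laminins and type IV collagens of basement membranes, and 5 proteins that work beside them were followed in mouse embryonic stem (ES) cells as the factors that keep these cells undifferentiated were taken away. The genes were chosen by symbol: every integrin alpha and beta chain, every laminin chain (Lama, Lamb, Lamc), every alpha chain of type IV collagen (Col4a), and Nid1, Nid2, Fn1, Vtn and Hspg2. This gave 50 of the 19937 genes measured, each read by 1 probe set. They are 17 integrin alpha chains, 9 integrin beta chains, 10 laminin chains, 6 type IV collagen chains, the 5 matrix proteins just named, and 3 genes that the naming rule also catches. These 3, Itgb1bp1, Itgb1bp2 and Itgb3bp, encode proteins named for binding an integrin beta tail and are not integrins.

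Total RNA was read on 15 whole-transcript arrays from Affymetrix, with 3 arrays for each of the 5 groups. All groups are the same 2i-adapted ES line (2i stands for the pair of inhibitors below), with a biotin and 3xFLAG tag knocked into Ctnnb1 (the beta-catenin gene) and the biotin ligase BirA, so every result comes from 1 line and no untagged line was compared. The 2iLIF group stayed in long-term culture with 3 µM CHIR99021, 1 µM PD0325901 and LIF. CHIR99021 blocks GSK3, a kinase that targets beta-catenin for breakdown. PD0325901 blocks MEK, which lies just above ERK in the growth factor pathway, and LIF acts through STAT3. The other groups went through withdrawal for 24 h: the 2i group kept both inhibitors without LIF, the CHIR group kept CHIR99021 alone, the PD03 group kept PD0325901 alone, and the DMSO group kept none of the 3. The labels give no age, sex or strain, and do not say whether a group's arrays stand for separate cultures. The p-values then reflect only the scatter among these arrays, part or all of which could be technical.

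Integrins are receptors made of an alpha and a beta chain that span the cell membrane and tie the extracellular matrix to the actin cytoskeleton. Most of the alpha chains that bind laminin, collagen or fibronectin pair with the beta chain Itgb1, and Itgav can also pair with Itgb3, Itgb5, Itgb6 or Itgb8. Basement membranes are thin sheets built on a network of laminin, a trimer of 1 alpha, 1 beta and 1 gamma chain, and a network of type IV collagen. Nidogens and perlecan (Hspg2) link the networks. In the early mouse embryo, the trimers of Lama1 or Lama5 with Lamb1 and Lamc1 form the first basement membranes, and the epiblast, from which ES cells are derived, rests on one. Fibronectin (Fn1) and vitronectin (Vtn) are matrix proteins that integrins bind through a short peptide motif.

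Levels are log2 values made by RMA and deposited by the authors, so a difference of 1 is a doubling. A difference between groups passed when its adjusted p (limma, Benjamini-Hochberg over all 19937 genes) was under 0.05, and "higher", "lower", "rose" and "fell" below refer to the first group named against the second. Arrays of one group correlated at 0.99832 to 0.99935 over all genes, and arrays of different groups at 0.9873 to 0.99762. Of the 8 ES cell markers read, Pou5f1 and Sox2 varied little, with group means of 12.49 to 12.54 and 11.41 to 11.57. Others moved in both directions: Nanog averaged 11.74 in DMSO and 12.72 in 2iLIF, and Utf1 averaged 12.51 in DMSO and 11.57 in 2iLIF. A probe set's level also depends on its probes, so levels are compared between groups for a gene and never between genes. In RNA from whole cultures, fewer cells that express a gene and less RNA per cell cannot be told apart.

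Of the 50 genes, 25 passed in at least 1 of the 7 comparisons and 25 passed in none. Of the 50, 8 had all 5 group means under 6, a range that held 5299 of the 19937 genes in every group. Itga4, Itga8, Itgax, Itgb6, Itgb8, Lama2, Lama4 and Vtn made up these 8, and Itga4 was the 1 of them that passed once. No detection call was used, so a low value may be background. The widest spread between group means was that of Itga1, with 2.49 between its highest and lowest group, followed by Lama1 with 1.84, Nid1 with 1.12, Itga3 with 0.89, Itga9 with 0.80 and Hspg2 with 0.79. All 25 genes that never passed kept their group means within 0.0636 to 0.2247 of each other.

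**Figure D1:**
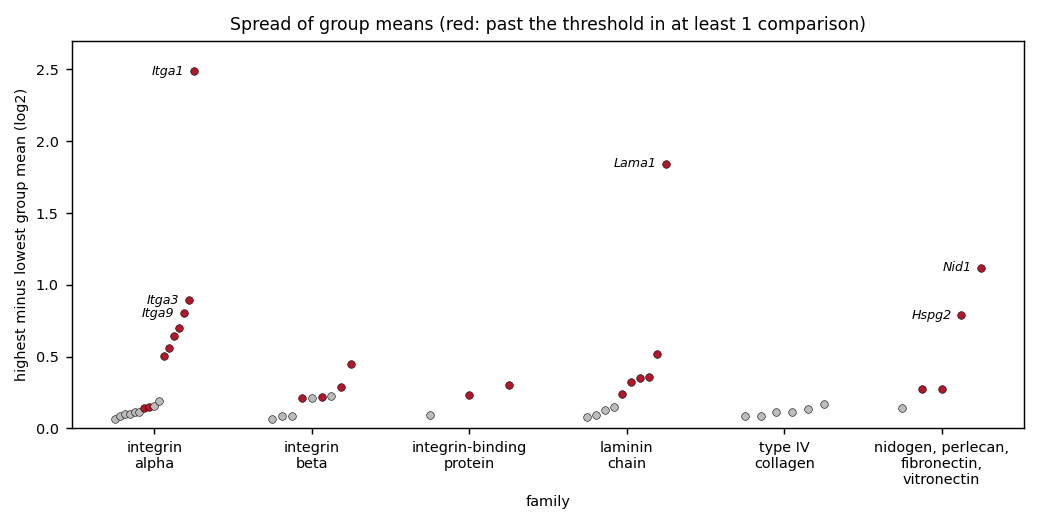
Difference between the highest and the lowest of the 5 group means (log2, vertical axis) for each of the 50 genes, arranged by family; red points passed in at least 1 of the 7 comparisons and grey points in none. Itga1 at 2.49 and Lama1 at 1.84 stand highest, and all 6 type IV collagen points are grey and under 0.18.

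Nid1, Itga9 and Lama1 were the genes raised most by keeping PD0325901 alone. In PD03 minus DMSO, 16 of the 50 passed (32%), 13 of them higher and 3 lower, where 16.8% of all genes passed, 8.67% higher and 8.15% lower. The higher genes included Nid1 (1.01 ± 0.08, SE), Itga9 (0.67 ± 0.05), Lama1 (0.57 ± 0.05), Itga5 (0.51 ± 0.05), Itgav (0.50 ± 0.05) and Hspg2 (0.47 ± 0.05). The lower genes were Itga1 (-0.90 ± 0.10), Itga3 (-0.60 ± 0.04) and Lamb1 (-0.17 ± 0.05). The median difference was 0.0573 over the 50 genes and 0.0045 over all genes.

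Keeping CHIR99021 alone raised Itga1 and Itga9 and lowered Itga3. In CHIR minus DMSO, 10 of the 50 passed (20%), where 20.8% of all genes did, so the share was that of the background. Of the 10, 7 were integrin alpha chains, out of 17 measured; the calls of 2 of these, Itga4 and Itgae, were lost in 19 of 23 and 7 of 24 alternatives. Itga1 (1.59 ± 0.10) and Itga9 (0.67 ± 0.05) led the 6 higher genes and Itga3 (-0.86 ± 0.04) led the 4 lower ones (10% and 10.8% of all genes were higher and lower), with Itga6 (-0.35 ± 0.04), Hspg2 (-0.32 ± 0.05) and Itga5 (-0.19 ± 0.05). With each array centred on its median the split was 11 higher and 3 lower.

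With both inhibitors kept, 17 of the 50 passed in 2i minus DMSO (34%, against 25.5% of all genes), 11 higher and 6 lower, where 13.6% of all genes were higher and 11.9% lower. Nid1 (0.87 ± 0.08), Itga9 (0.80 ± 0.05) and Lama1 (0.65 ± 0.05) had the largest increases, and Itga3 (-0.86 ± 0.04), Itga6 (-0.39 ± 0.04) and Lama5 (-0.36 ± 0.06) the largest decreases. All 3 comparisons just described use the same DMSO arrays.

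The effect of each inhibitor was also read with the other present. In 2i minus CHIR, which asks what PD0325901 does on top of CHIR99021, 12 of the 50 passed (24%, against 9.46% of all genes), 9 higher and 3 lower (6 and 4 with arrays centred on the median), where 5.7% of all genes were higher and 3.76% lower. In 2i minus PD03, the converse for CHIR99021, 10 passed (20%, against 19.5%), 2 higher and 8 lower (4 and 8 with that centring), where 10.1% of all genes were higher and 9.44% lower. PD03 minus DMSO and 2i minus CHIR share no arrays. Of the genes that passed in them, 11 moved the same way in both: Hspg2, Itga5, Itgav, Itgb4, Itgb5, Lama1, Lamb2, Nid1 and Nid2 higher, Itga1 and Lamb1 lower. That is 68.8% of the 16 and 91.7% of the 12, and over all genes the shares were 40.6% and 72.1%. CHIR minus DMSO and 2i minus PD03 share no arrays either. Itga1 was higher in both and Hspg2, Itga3, Itga5 and Itga6 lower in both, which is 50% of each set of 10, with 58% and 61.8% over all genes.

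The interaction, (2i minus PD03) minus (CHIR minus DMSO), tests whether the effect of one inhibitor depends on the other. It passed for 4 of the 50 genes (8%, against 2.04% of all genes). All 4 were alpha chains: Itga1, Itga9 and Itga5 with a negative term (3 of 50, against 1.1% of all genes) and Itga3 with a positive one (against 0.933%). In 2iLIF minus 2i, 9 of the 50 passed (18%, against 12.2% of all genes), 3 higher and 6 lower, where 4.56% of all genes were higher and 7.66% lower. The 2iLIF arrays came from long-term culture and the 2i arrays from a 24 h withdrawal. LIF and the withdrawal step therefore cannot be told apart in this comparison. The members' split was 6 and 4 with arrays centred on the median, and 4 and 5 after quantile normalization over the genes, so no direction is read from it.

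**Figure D2:**
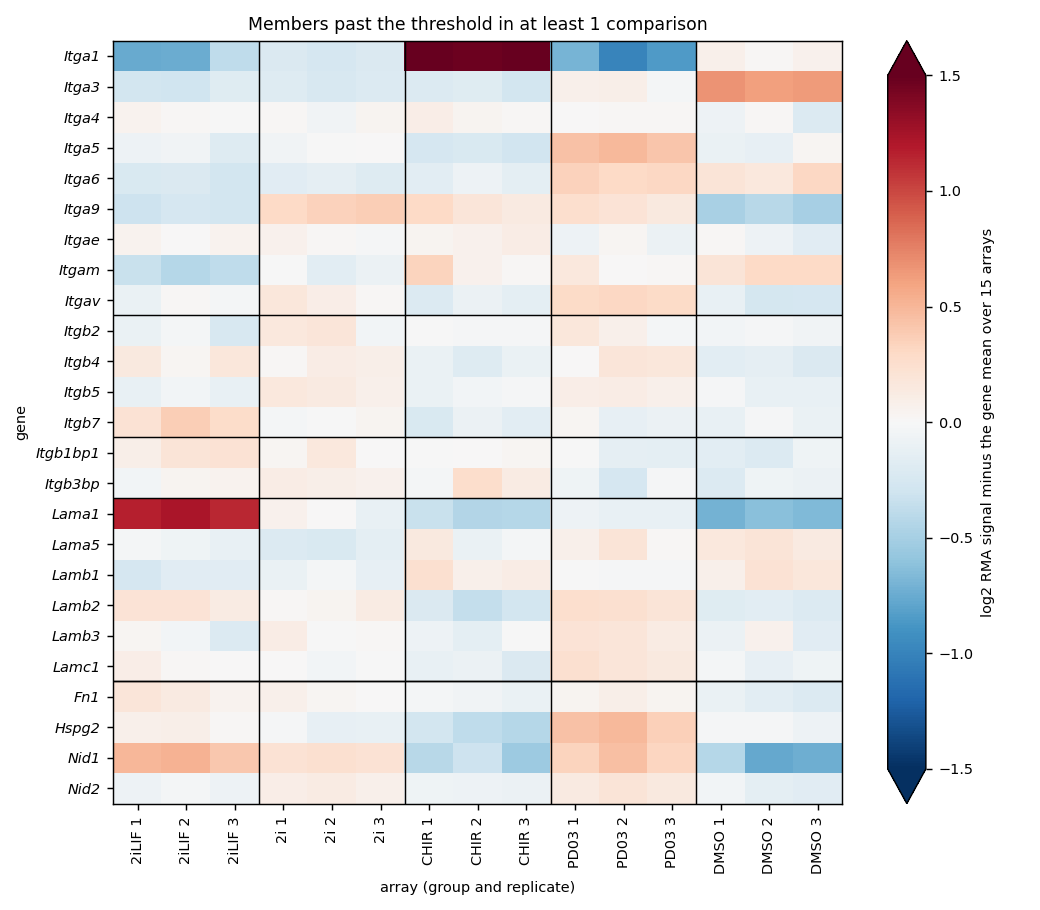
Log2 signal of each of the 15 arrays (columns) minus the gene's mean over the 15 arrays, for the 25 genes (rows) that passed in at least 1 comparison; black lines part the groups and the families, and the most extreme colours also stand for values past the ends of the scale. Itga1 is high in all 3 CHIR arrays, Itga3 in all 3 DMSO arrays and Lama1 in all 3 2iLIF arrays, and Nid1 is low in the CHIR and DMSO arrays.

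Promoter sequences were read for the genes that the results turn on and for which the RefSeq-derived table used here (mouse build GRCm38.p6) has a window. It held 37 windows for 34 of the 50 genes, each from 250 bases before to 50 bases after an annotated start, 300 bases in all. Both strands were searched for a core of the TCF/LEF factors that work with beta-catenin (CTTTGAT, or the same letters with an ending in AA, TT or TA), a core of the ETS factors that ERK can act on (CCGGAA), the GC box of SP and KLF factors (GGGCGG) and the CCAAT box (CCAAT). The TCF/LEF core was in 3 of the 37 windows (8.11%), those of Itga1, Itga10 and Itgb1bp1, and in 16.9% of all 32851 windows. The ETS core was in 5 (13.5%, against 14.9%), those of Itga3, Itgb1, Itgb1bp1, Itgb3bp and Nid1. GGGCGG was in 18 (48.6%, against 35.7%) and CCAAT in 8 (21.6%, against 37.4%).

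The 3 windows below belong to the alpha chain with the widest spread, to the alpha chain that was lower under every inhibitor treatment than in DMSO, and to the nidogen that PD0325901 moved most. They are printed 5′ to 3′ on the gene's strand, with the TCF/LEF or ETS core in capitals. That of Itga1 is at chr13:115101915-115102214, minus strand, and its core begins 113 bases before the start. The Itga3 window shown is at chr11:95076665-95076964, minus strand, with its core 89 bases before the start, and a second Itga3 window in the table has neither core. The Nid1 window is at chr13:13437352-13437651, plus strand, with its core 167 bases before the start. The windows of Itga5, Itga9, Itgav, Itgb5, Hspg2 and Lamb2, which also passed in comparisons of the inhibitors, hold neither core. A match describes the letters and shows neither binding nor a cause.
Itga1: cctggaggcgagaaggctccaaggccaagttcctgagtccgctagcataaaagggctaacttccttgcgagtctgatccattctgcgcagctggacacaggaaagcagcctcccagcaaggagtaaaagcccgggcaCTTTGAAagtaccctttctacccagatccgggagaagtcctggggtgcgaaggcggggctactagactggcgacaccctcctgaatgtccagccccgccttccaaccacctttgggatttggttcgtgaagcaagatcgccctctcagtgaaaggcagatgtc
Itga3: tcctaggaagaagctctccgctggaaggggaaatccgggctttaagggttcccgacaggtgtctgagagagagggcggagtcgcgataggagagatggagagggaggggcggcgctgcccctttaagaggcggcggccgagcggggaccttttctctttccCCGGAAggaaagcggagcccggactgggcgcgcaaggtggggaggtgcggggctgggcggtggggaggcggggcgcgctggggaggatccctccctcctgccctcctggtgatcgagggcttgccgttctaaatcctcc
Nid1: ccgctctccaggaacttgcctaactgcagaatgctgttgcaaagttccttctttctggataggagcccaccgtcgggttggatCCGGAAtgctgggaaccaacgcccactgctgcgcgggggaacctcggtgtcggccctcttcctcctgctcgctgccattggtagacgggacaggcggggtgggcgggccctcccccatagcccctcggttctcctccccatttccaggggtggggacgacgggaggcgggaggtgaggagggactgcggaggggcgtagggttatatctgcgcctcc

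Itga1 is the alpha chain of a collagen receptor, and it responded in opposite directions to the 2 inhibitors. It read 8.26, 7.96 and 8.18 in CHIR, 6.56, 6.51 and 6.55 in DMSO, 6.28, 6.24 and 6.28 in 2i, 5.79, 5.50 and 5.65 in PD03, and 5.74, 5.74 and 6.11 in 2iLIF. The CHIR arrays lay above all others, and the PD03 arrays below all DMSO and 2i arrays. Itga1 was 3.02-fold higher in CHIR than in DMSO (log2 1.59 ± 0.10, adjusted p = 8.06e-09), the rank 22 increase among the 19937 genes. In PD03 minus DMSO it fell by 0.90 ± 0.10 (adjusted p = 5.17e-06), which was rank 41 among decreases. Its means in PD03 (5.65) and 2iLIF (5.86) are under 6, where a value may be background, so differences that use these groups, the interaction among them, may be limited by that floor.

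With both inhibitors the CHIR99021 effect on Itga1 was smaller. Between 2i and PD03 it was 0.62 ± 0.10 (adjusted p = 0.000221), and the interaction was -0.98 ± 0.13 (adjusted p = 0.000805). Put the other way, adding PD0325901 to CHIR99021 lowered Itga1 by a factor of 3.66 (-1.87 ± 0.10, adjusted p = 6.4e-09), the strongest decrease of any gene in 2i minus CHIR. The net difference, 2i minus DMSO, was -0.28 ± 0.10 (adjusted p = 0.0426), and it did not pass without any 1 of the 2i or DMSO arrays, without CHIR replicate 3 or without PD03 replicate 3 (adjusted p 0.0538 to 0.107), nor with array weights. Itga1 was lower again in 2iLIF than in 2i, at -0.40 ± 0.10 (adjusted p = 0.00993), a call lost without 2iLIF replicate 2 (adjusted p = 0.0585). Itga2, the other collagen-binding alpha chain next to Itga1 on chromosome 13, kept group means of 5.98 to 6.08 and passed nowhere.

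Itga3 encodes an alpha chain of laminin receptors, and it was highest in cells with no factor. Its values were 9.16, 9.10 and 9.13 in DMSO, 8.56, 8.57 and 8.45 in PD03, 8.28, 8.31 and 8.21 in CHIR, 8.29, 8.25 and 8.28 in 2i, and 8.22, 8.19 and 8.30 in 2iLIF. No DMSO array overlapped with any other group, and the CHIR, 2i and 2iLIF arrays overlapped with each other. Itga3 fell 1.82-fold in CHIR minus DMSO (-0.86 ± 0.04, adjusted p = 1.11e-09, rank 47 among decreases) and by 0.60 ± 0.04 in PD03 minus DMSO (adjusted p = 7.14e-08). Both inhibitors together gave -0.86 ± 0.04 against DMSO (adjusted p = 5.25e-10), and 2i minus CHIR was 0.01 ± 0.04 (adjusted p = 0.944). The effect of CHIR99021 was -0.26 ± 0.04 with PD0325901 present, and the interaction was 0.61 ± 0.06 (adjusted p = 4.5e-05).

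Itga9, an alpha chain that pairs with Itgb1 and binds tenascin and other matrix ligands, was lowest in DMSO. It read 7.03, 7.10 and 7.02 in DMSO, 7.82, 7.70 and 7.65 in CHIR, 7.77, 7.72 and 7.67 in PD03, 7.81, 7.86 and 7.88 in 2i, and 7.20, 7.27 and 7.24 in 2iLIF. Each inhibitor alone raised it by 0.67 ± 0.05 (1.6-fold for CHIR99021, adjusted p = 3.34e-08; adjusted p = 4.01e-08 for PD0325901). Both together gave 0.80 ± 0.05 (adjusted p = 2.4e-09), and the interaction was -0.54 ± 0.06 (adjusted p = 0.000203). The 2iLIF minus 2i difference had the opposite sign: Itga9 was 1.53-fold lower in 2iLIF than in 2i (-0.61 ± 0.05, adjusted p = 1.78e-07), and the 2iLIF arrays lay between the DMSO arrays and the rest.

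**Figure D3:**
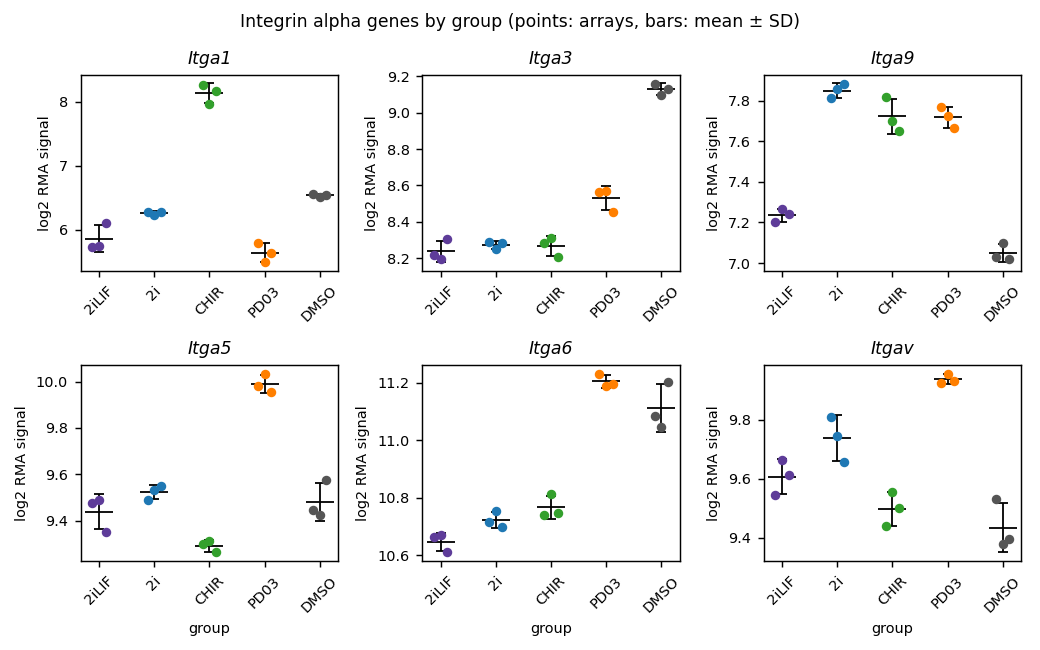
Log2 RMA signal (vertical axes, scaled to each gene and not starting at 0) of 6 integrin alpha genes by group; points are arrays and bars are mean ± SD, n = 3. Itga1 separates CHIR from all other groups, Itga3 and Itga9 separate DMSO from the inhibitor groups, and Itga5 and Itgav are highest in PD03.

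Itga5 and Itgav, the alpha chains of the main fibronectin and vitronectin receptors, were both highest in PD03. Itga5 read 9.98, 10.03 and 9.96 in PD03, 9.49, 9.53 and 9.55 in 2i, 9.47, 9.49 and 9.35 in 2iLIF, 9.44, 9.42 and 9.57 in DMSO, and 9.30, 9.31 and 9.26 in CHIR. Itgav read 9.92, 9.96 and 9.93 in PD03, 9.81, 9.75 and 9.66 in 2i, 9.55, 9.67 and 9.61 in 2iLIF, 9.44, 9.56 and 9.50 in CHIR, and 9.53, 9.38 and 9.39 in DMSO. For both genes the PD03 arrays lay above every other array, and for Itga5 the CHIR arrays lay below every other array.

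PD0325901 alone raised Itga5 by 0.51 ± 0.05 (adjusted p = 9.96e-07) and Itgav by 0.50 ± 0.05 (adjusted p = 2.96e-06). With CHIR99021 present the increases were 0.23 ± 0.05 and 0.24 ± 0.05 (adjusted p = 0.00405 and 0.00615). The interaction of Itga5 was -0.28 ± 0.07 (adjusted p = 0.0413), but it did not pass without any 1 of the 2i, CHIR or PD03 arrays or without DMSO replicate 1 or 2 (adjusted p 0.0667 to 0.106). That of Itgav was -0.26 ± 0.07 (adjusted p = 0.0793). CHIR99021 gave -0.19 ± 0.05 for Itga5 without PD0325901 (adjusted p = 0.00796, and 0.0575 with arrays centred on the median) and -0.47 ± 0.05 with it (adjusted p = 2.94e-06). For Itgav the same effects were 0.06 ± 0.05, which did not pass, and -0.20 ± 0.05 (adjusted p = 0.0102, and 0.0579 without 2i replicate 3).

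Itga6, the alpha chain of laminin receptors that pairs with Itgb1 or Itgb4, was lower wherever CHIR99021 was present. Its arrays with CHIR99021 ran from 10.74 to 10.81 in CHIR, 10.70 to 10.76 in 2i and 10.61 to 10.67 in 2iLIF. Those without it ran from 11.19 to 11.23 in PD03 and 11.05 to 11.20 in DMSO, with no overlap. The effect of CHIR99021 was -0.35 ± 0.04 without PD0325901 (adjusted p = 1.87e-05) and -0.48 ± 0.04 with it (adjusted p = 6.54e-07), and the interaction, -0.14, did not pass. PD0325901 gave 0.09 against DMSO and -0.04 against CHIR, neither of which passed.

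Of the other 11 alpha chains, 3 passed at least once and 8 in no comparison. Itgam, a leukocyte chain, had a group mean of 6.55 in DMSO, 6.43 in CHIR, 6.34 in PD03, 6.20 in 2i and 5.90 in 2iLIF. It fell by 0.35 ± 0.07 in 2i minus DMSO (adjusted p = 0.00161) and by 0.30 ± 0.07 in 2iLIF minus 2i (adjusted p = 0.0104, and 0.0508 and 0.0549 without 2i replicate 1 or 2iLIF replicate 2). Itgae and Itga4 were called in CHIR minus DMSO at 0.15 and 0.14, at low signal, with group means of 5.93 to 6.08 and 5.74 to 5.88. The Itga4 call was lost in 19 of 23 alternatives, and that of Itgae without any 1 CHIR array or without DMSO replicate 2 or 3 (adjusted p 0.0522 to 0.162). Itga2, Itga2b, Itga7, Itga8, Itga10, Itga11, Itgal and Itgax passed in no comparison. Of 9 leukocyte markers, Ptprc (CD45) had group means of 5.95 to 6.02 and passed nowhere. Laptm5 was the 1 that passed in 2i minus DMSO and in 2iLIF minus 2i, where 25.5% and 12.2% of all genes passed. Its means rose from 10.27 in DMSO to 10.68 in 2i and 10.88 in 2iLIF, and the second call was lost without 2iLIF replicate 1 or 2i replicate 1. In CHIR minus DMSO 2 of the 9 passed (20.8% of all genes), Laptm5 higher and Cd68 lower.

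Among the beta chains, Itgb1, the common partner, passed in none of the 7 comparisons. Itgb1 read 10.61 to 10.78 in 2iLIF, 10.73 to 10.85 in 2i, 10.75 to 10.86 in CHIR, 10.89 to 10.95 in PD03 and 10.81 to 10.92 in DMSO. Its difference nearest the threshold was 2i minus PD03, at -0.13 ± 0.05 (adjusted p = 0.0803). It passed there under array weights, under eBayes with trend and robust settings and after quantile normalization. In CHIR minus DMSO 0 of the 9 beta chains passed in limma, with 0 at an unadjusted p under 0.05, and their differences ran from -0.0869 to 0.0533.

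Among the groups without LIF, Itgb5 and Itgb4 followed PD0325901. Itgb5, a partner of Itgav, read 10.22, 10.24 and 10.20 in PD03 and 10.29, 10.26 and 10.21 in 2i. It read 10.11, 10.01 and 10.01 in DMSO, 10.02, 10.09 and 10.11 in CHIR and 10.02, 10.09 and 10.02 in 2iLIF. The PD03 and 2i arrays lay above all the others. It rose by 0.18 ± 0.04 in PD03 minus DMSO (adjusted p = 0.00577) and by 0.18 ± 0.04 in 2i minus CHIR (adjusted p = 0.00919, and 0.0605 with arrays centred on the median). Itgb5 was lower in 2iLIF than in 2i (-0.21 ± 0.04, adjusted p = 0.00183).

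Itgb4, the partner of Itga6 in hemidesmosomes, read 7.52, 7.70 and 7.69 in PD03 and 7.54, 7.63 and 7.61 in 2i, against 7.37, 7.38 and 7.30 in DMSO and 7.42, 7.33 and 7.42 in CHIR. In 2iLIF it read 7.67, 7.55 and 7.69. It rose by 0.29 ± 0.05 in PD03 minus DMSO (adjusted p = 0.00118), and by 0.20 ± 0.05 in 2i minus CHIR (adjusted p = 0.0243). The latter did not pass without 2i replicate 2 or 3 or CHIR replicate 2 (adjusted p 0.0782 to 0.112), nor with arrays centred on the median.

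Itgb7 and Itgb2 are beta chains of leukocytes and were called in 2iLIF minus 2i alone. Itgb7 was higher in 2iLIF (7.50, 7.65 and 7.56) than in 2i (7.26, 7.28 and 7.32), at 0.28 ± 0.05 (adjusted p = 0.00112), with no overlap. Itgb2 was lower, at -0.22 ± 0.06 (adjusted p = 0.0314), but its arrays overlapped (5.97, 6.04 and 5.82 in 2iLIF, 6.22, 6.25 and 6.02 in 2i). That call was lost without 2iLIF replicate 1 or 3 or 2i replicate 1 or 2 (adjusted p 0.0526 to 0.157). Of 9 leukocyte markers, 1 was higher in 2iLIF than in 2i and 0 lower, where 4.56% of all genes were higher and 7.66% lower. The summed log2 level of these markers was 61.69 to 62.17 in 2iLIF and 61.81 to 62.03 in 2i. Their part in these results was not tested. Itgb2l, Itgb3, Itgb6 and Itgb8 passed nowhere.

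Of the 3 binding proteins, Itgb1bp1 (ICAP-1, which binds the Itgb1 tail) passed in 2i minus DMSO at 0.20 ± 0.05 (adjusted p = 0.0092, and 0.056 without 2i replicate 2). It was also called in 2i minus PD03 at 0.17 ± 0.05 (adjusted p = 0.0392), lost without 2i replicate 1 or 2, CHIR replicate 3 or PD03 replicate 2 or 3. Itgb3bp, also a centromere protein, was called in CHIR minus DMSO at 0.23 ± 0.07 (adjusted p = 0.0236), and this was lost without CHIR replicate 2 or 3 or DMSO replicate 1 (adjusted p 0.0655 to 0.132). Its call in 2i minus DMSO, 0.21 ± 0.07 (adjusted p = 0.0391), was lost in 7 of 24 alternatives. Itgb1bp2 passed nowhere.

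Lama1, the alpha chain of the first embryonic laminin, stepped up from DMSO to 2iLIF. It read 7.06, 7.14 and 7.11 in DMSO, 7.44, 7.33 and 7.35 in CHIR, 7.70, 7.66 and 7.66 in PD03, 7.84, 7.78 and 7.66 in 2i, and 8.94, 8.99 and 8.90 in 2iLIF. The PD03 and 2i arrays overlapped, and no other 2 groups did. It was 2.28-fold higher in 2iLIF than in 2i (1.19 ± 0.05, adjusted p = 2.54e-10), the rank 11 increase among all genes in that comparison. PD0325901 raised it by 0.57 ± 0.05 without CHIR99021 (adjusted p = 3.1e-07) and by 0.38 ± 0.05 with it (adjusted p = 5.23e-05). CHIR99021 raised it by 0.27 ± 0.05 without PD0325901 (adjusted p = 0.000545), its effect with PD0325901 was 0.08 and did not pass, and the interaction, -0.19, did not pass either.

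Lama5, which replaces or joins Lama1 in many basement membranes, was highest in DMSO and lowest in 2i. It read 9.43, 9.47 and 9.41 in DMSO, 9.35, 9.47 and 9.29 in PD03, 9.42, 9.17 and 9.25 in CHIR, 9.24, 9.21 and 9.16 in 2iLIF, and 9.07, 9.05 and 9.13 in 2i. The 2i arrays lay below all others. It fell by 0.36 ± 0.06 in 2i minus DMSO (adjusted p = 0.000207) and by 0.29 ± 0.06 in 2i minus PD03 (adjusted p = 0.00204). Neither inhibitor alone gave a difference that passed, with -0.16 in CHIR minus DMSO (adjusted p = 0.067) and -0.07 in PD03 minus DMSO. Its call in 2i minus CHIR (-0.20 ± 0.06, adjusted p = 0.0428) was lost without any 1 of the 2i arrays or without 1 of 5 other arrays, 2iLIF replicate 2, CHIR replicate 1 or 3, PD03 replicate 1 and DMSO replicate 1 (adjusted p 0.0527 to 0.172).

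The beta chains of laminin moved in opposite directions. Lamb2 read 8.97, 8.96 and 8.91 in PD03, 8.92, 8.93 and 8.84 in 2iLIF, 8.74, 8.75 and 8.84 in 2i, 8.54, 8.56 and 8.51 in DMSO, and 8.50, 8.36 and 8.44 in CHIR. All 9 arrays with PD0325901 lay above all 6 without it. PD0325901 raised Lamb2 by 0.41 ± 0.04 without CHIR99021 (adjusted p = 5.83e-06) and by 0.35 ± 0.04 with it (adjusted p = 7.61e-05). CHIR99021 on top of PD0325901 gave -0.17 ± 0.04 (adjusted p = 0.0117, and 0.0501 and 0.0533 without PD03 replicate 1 or 2i replicate 1).

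Lamb1, the beta chain of the first embryonic laminins, read 7.61, 7.76 and 7.71 in DMSO, 7.78, 7.61 and 7.64 in CHIR, 7.53, 7.52 and 7.52 in PD03, 7.44, 7.50 and 7.42 in 2i, and 7.28, 7.37 and 7.37 in 2iLIF. Here all 9 arrays with PD0325901 lay below all 6 without it. The differences were -0.17 ± 0.05 in PD03 minus DMSO (adjusted p = 0.0279), lost without any 1 PD03 array or without DMSO replicate 2 or 3 (adjusted p 0.0611 to 0.113). In 2i minus CHIR the difference was -0.23 ± 0.05 (adjusted p = 0.00799), and this was kept under every alternative tried.

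Lamc1, the gamma chain common to most laminins, was highest in PD03, with 11.17, 11.11 and 11.08, against 10.91, 10.82 and 10.88 in DMSO. It read 10.94, 10.89 and 10.93 in 2i, 10.82, 10.85 and 10.72 in CHIR and 11.03, 10.95 and 10.95 in 2iLIF. The PD03 arrays lay above all others. It rose by 0.25 ± 0.04 in PD03 minus DMSO (adjusted p = 0.000517) and was lower by 0.20 in 2i minus PD03 (-0.20 ± 0.04, adjusted p = 0.00305). Its difference in 2i minus CHIR, 0.12, did not pass. Lamb3, a chain of epithelial laminin, was called in PD03 minus DMSO at 0.23 ± 0.07 (adjusted p = 0.0227), and this was lost without PD03 replicate 1 or 2 or DMSO replicate 1 or 3 (adjusted p 0.0678 to 0.114). Lama2, Lama3, Lama4 and Lamc3 passed nowhere.

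Nid1, a nidogen that bridges laminin and type IV collagen, followed PD0325901. It read 10.35, 10.46 and 10.33 in PD03, 10.22, 10.25 and 10.22 in 2i and 10.51, 10.53 and 10.41 in 2iLIF, against 9.58, 9.23 and 9.27 in DMSO and 9.59, 9.70 and 9.46 in CHIR. All 9 arrays with PD0325901 lay above all 6 without it, and the CHIR and DMSO arrays overlapped. Nid1 was 2.02-fold higher in PD03 than in DMSO (1.01 ± 0.08, adjusted p = 1.6e-07), the rank 44 increase. With CHIR99021 present the increase was 0.65 ± 0.08 (adjusted p = 4.72e-05), and the interaction was -0.37 (adjusted p = 0.125). A further 0.25 ± 0.08 in 2iLIF minus 2i (adjusted p = 0.0483) was lost in 11 of 24 alternatives, among them without any 1 of the 2iLIF or 2i arrays (adjusted p of those lost without 1 array, 0.0531 to 0.157).

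Nid2, the second nidogen, also rose with PD0325901 and, unlike Nid1, was lower in 2iLIF than in 2i. It read 11.12, 11.18 and 11.14 in PD03, 11.09, 11.11 and 11.07 in 2i, 10.92, 10.92 and 10.91 in CHIR, 10.95, 10.84 and 10.81 in DMSO, and 10.91, 10.96 and 10.92 in 2iLIF. It rose by 0.28 ± 0.04 in PD03 minus DMSO (adjusted p = 6.6e-05) and by 0.17 ± 0.04 in 2i minus CHIR (adjusted p = 0.00731, and 0.053 with arrays centred on the median). The difference in 2iLIF minus 2i was -0.16 ± 0.04 (adjusted p = 0.00967, and 0.0765 with that centring), and the 2iLIF arrays overlapped with those of CHIR and DMSO.

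Hspg2, the heparan sulfate proteoglycan perlecan, was moved in opposite directions by the inhibitors. It read 9.58, 9.64 and 9.50 in PD03, 9.13, 9.13 and 9.07 in DMSO, 9.13, 9.02 and 9.03 in 2i, 8.87, 8.77 and 8.72 in CHIR, and 9.22, 9.23 and 9.17 in 2iLIF. The PD03 arrays lay above all others and the CHIR arrays below all others, and the 2i and DMSO arrays overlapped. PD0325901 raised it by 0.47 ± 0.05 (adjusted p = 2.77e-06) and CHIR99021 lowered it by 0.32 (CHIR minus DMSO -0.32 ± 0.05, adjusted p = 0.000106). The difference between 2i and DMSO was -0.05 ± 0.05 (adjusted p = 0.52), and the interaction, -0.19, did not pass (adjusted p = 0.203).

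Fn1 (fibronectin) rose by 0.21 ± 0.04 in PD03 minus DMSO (adjusted p = 0.0015) and by 0.20 ± 0.04 in 2i minus DMSO (adjusted p = 0.00191). It read 12.17, 12.21 and 12.17 in PD03, 12.21, 12.16 and 12.13 in 2i, 12.09, 12.07 and 12.03 in CHIR, 12.30, 12.26 and 12.18 in 2iLIF, and 12.03, 11.96 and 11.92 in DMSO. All other groups lay above the DMSO arrays, though the lowest CHIR array exceeded the highest DMSO array by less than the rounding shown. Vtn had group means of 5.80 to 5.95 and passed nowhere.

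**Figure D4:**
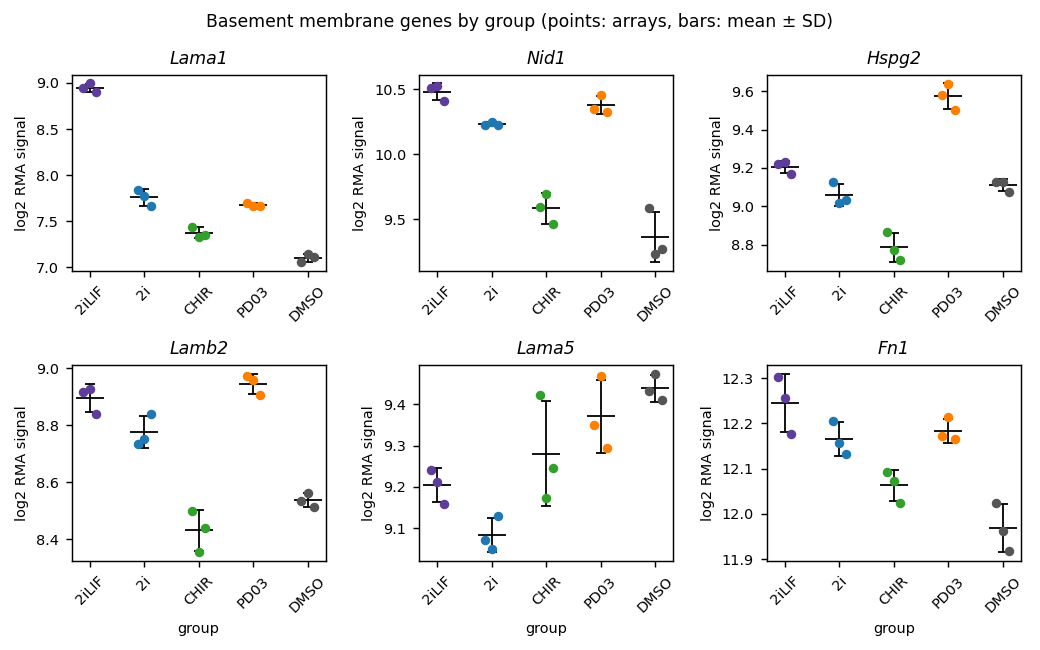
Log2 RMA signal (vertical axes, scaled to each gene and not starting at 0) of 6 basement membrane and matrix genes by group; points are arrays and bars are mean ± SD, n = 3. Nid1 and Lamb2 are higher in every group with PD0325901, Lama1 is highest in 2iLIF, and Hspg2 is highest in PD03 and lowest in CHIR.

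No type IV collagen chain was called in any comparison. Of 42 tests (6 chains in 7 comparisons) 0 passed in limma and 1 had an unadjusted p under 0.05, and the lowest adjusted p was 0.174. Col4a1 read 7.10 to 7.28 in 2iLIF, 7.25 to 7.45 in 2i, 7.11 to 7.37 in CHIR, 7.29 to 7.39 in PD03 and 7.14 to 7.38 in DMSO, and its arrays overlapped between all groups other than 2iLIF and PD03. Col4a2, which shares a promoter region with Col4a1 and forms the common collagen trimer with it, had group means of 7.16 to 7.25. The differences of Col4a1 and Col4a2 in PD03 minus DMSO were 0.06 ± 0.07 and 0.04 ± 0.05, against 1.01 ± 0.08 for Nid1 in the same comparison. The alternatives gave 2 calls, Col4a3 in CHIR minus DMSO without DMSO replicate 3 (-0.15, adjusted p = 0.0483) and Col4a1 in 2iLIF minus 2i with array weights (-0.20, adjusted p = 0.0486).

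**Figure D5:**
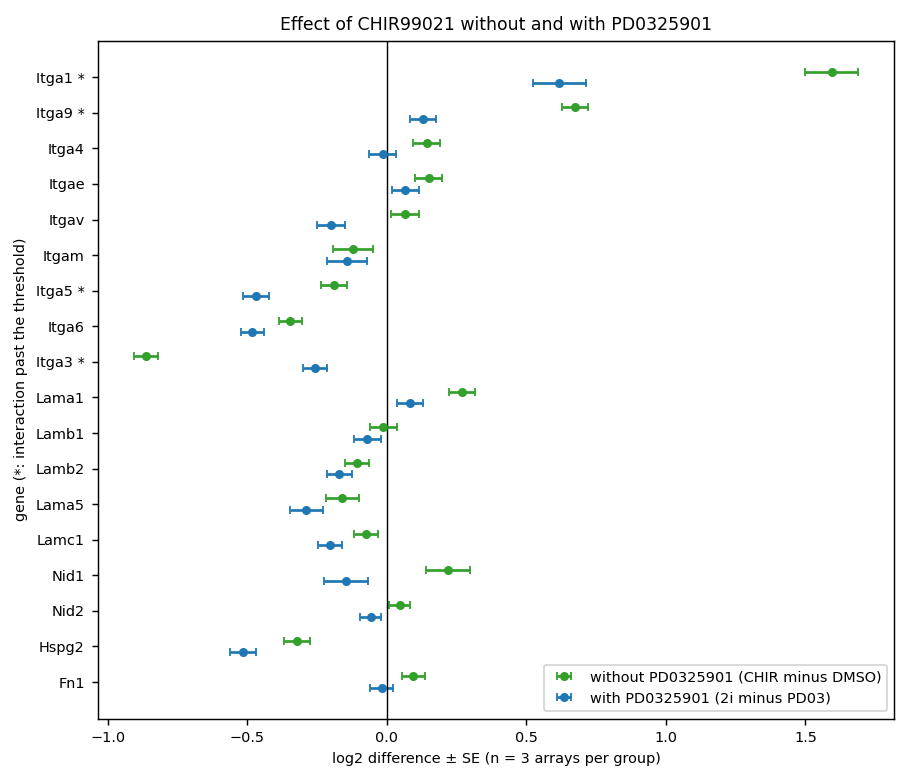
Effect of CHIR99021 as a log2 difference ± SE (horizontal axis, n = 3 arrays per group), without PD0325901 (green, CHIR minus DMSO) and with it (blue, 2i minus PD03), for 18 of the genes; an asterisk marks an interaction that passed. The effects of Itga1, Itga9 and Itga3 are nearer to 0 with PD0325901, and those of Itga6 and Hspg2 are negative both without and with it.

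Markers of other cells that make these proteins were read in the same arrays. Primitive and parietal endoderm secrete much laminin and type IV collagen. Of 15 endoderm markers, 2 were higher in PD03 than in DMSO, Srgn (0.62 ± 0.06) and Gata4 (0.22 ± 0.06, adjusted p = 0.0196, lost without PD03 replicate 2 or 3 or DMSO replicate 3). Over all genes 8.67% were higher there. The defining factors Gata6, Sox17 and the receptor Pdgfra had group means of 6.12 to 6.29, 6.08 to 6.18 and 6.16 to 6.31 and passed nowhere. The summed log2 level of the 15 markers was 97.08 to 98.19 in PD03, 95.69 to 96.92 in DMSO, 95.36 to 96.17 in CHIR, 95.21 to 97.45 in 2i and 95.18 to 96.81 in 2iLIF. The part of such cells in the rise of Nid1, Lama1 and Hspg2 with PD0325901 was not tested. Beside Lama1 in 2iLIF minus 2i, 0 of the 15 were higher and 1, Srgn, was lower (-0.50 ± 0.06). Over all genes 4.56% were higher and 7.66% lower in that comparison.

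Fibroblast and feeder markers gave 1 call of 12, Dcn lower, in each comparison with DMSO. In CHIR, PD03 and 2i minus DMSO 10.8%, 8.15% and 11.9% of all genes were lower. The Dcn call in CHIR minus DMSO was lost without CHIR replicate 2 or 3 or DMSO replicate 3. The summed level of the 12 markers was 74.52 to 75.57 in PD03 and 74.83 to 75.94 in DMSO. Of 8 endothelial markers, Pecam1, which ES cells also express, was higher in CHIR than in DMSO (0.48 ± 0.07) and Tek and Egfl7 were lower. Over all genes 10% were higher and 10.8% lower there. The endothelial sum was 55.11 to 55.32 in CHIR and 55.08 to 55.42 in DMSO beside the rise of Itga1. In PD03 minus DMSO 4 of the 8 passed, 3 higher and 1 lower, where 16.8% of all genes passed. The endothelial sum in PD03 was 56.29 to 56.51, above that of every DMSO array. Of 10 trophoblast markers 3 were higher and 2 lower in CHIR minus DMSO, where 10% of all genes were higher and 10.8% lower. Beside Lama1, 2 of the 10, Tfap2c (0.97 ± 0.08) and Eomes (0.92 ± 0.10), were higher in 2iLIF than in 2i (4.56% of all genes). The trophoblast sum was 68.03 to 68.61 in 2iLIF and 66.49 to 66.79 in 2i. Its rise rests on Tfap2c and Eomes: the median difference over the 10 was -0.0123, against -0.0135 over all genes. The part of these cells in the results was not tested. Of 8 ES cell markers 3 were higher and 3 lower in PD03 minus DMSO, where 8.67% of all genes were higher and 8.15% lower.

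The genes that act with these receptors and matrix proteins were counted from lists. Of 27 genes of the integrin adhesion machinery, 11 passed in CHIR minus DMSO (5 higher, 6 lower), 10 in PD03 minus DMSO (7 higher, 3 lower) and 12 in 2i minus DMSO (5 higher, 7 lower), where 20.8%, 16.8% and 25.5% of all genes passed. The list holds Itgb1bp1 and Itgb1bp2, which are also among the 50. With arrays centred on the median the first became 6 higher and 3 lower and the second 3 higher and 4 lower. The list's median difference was -0.0238 in CHIR minus DMSO and 0.0409 in PD03 minus DMSO, against -0.0059 and 0.0045 over all genes. Bcar1 (p130Cas), a scaffold phosphorylated on integrin engagement, fell by 0.82 ± 0.05 in CHIR minus DMSO and by 0.64 ± 0.05 in 2i minus PD03. Kank2, which binds talin, was higher by 0.68 ± 0.04 in PD03 than in DMSO, and Zyx (zyxin), found at mature adhesions, was lower there (-0.46 ± 0.05). Parvb, a parvin that joins integrin-linked kinase to actin, was the adhesion gene with the widest difference in 2iLIF minus 2i, 1.03 ± 0.05. In that comparison 2 of the 27 were higher and 7 lower (3 and 3 with that centring), and 4.56% of all genes were higher and 7.66% lower. In the interaction 0 of the 27 passed in limma (2.04% of all genes), and 6 had an unadjusted p under 0.05.

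Of 21 other basement membrane proteins, 9 passed in CHIR minus DMSO (5 higher, 4 lower) and 6 in PD03 minus DMSO (4 higher, 2 lower), where 20.8% and 16.8% of all genes passed, with medians of -0.0137 and 0.0106. Ntn1 (netrin), a laminin-related guidance protein, was higher with CHIR99021 by 2.14 ± 0.05 without PD0325901 and by 1.87 ± 0.05 with it. Pxdn (peroxidasin), the enzyme that crosslinks type IV collagen, was lower in every comparison with DMSO: -0.96 ± 0.06 in CHIR, -0.94 ± 0.06 in PD03 and -1.52 ± 0.06 in 2i. Sparc, a collagen-binding glycoprotein of basement membranes, and Agrn (agrin), a heparan sulfate proteoglycan, rose by 0.45 ± 0.04 and 0.44 ± 0.04 in PD03 minus DMSO. Of 18 genes of collagen assembly and modification, 7 passed in PD03 minus DMSO and all 7 were higher, where 8.67% of all genes were higher, with a median difference of 0.1041 over the 18, against 0.0045 over all genes. P4ha1, a subunit of the prolyl hydroxylase of collagen, was higher by 0.57 ± 0.08, while the 6 type IV collagen chains had no call.

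Of 18 other matrix receptors, 9 passed in CHIR minus DMSO (2 higher, 7 lower) and 10 in PD03 minus DMSO (6 higher, 4 lower), where 20.8% and 16.8% of all genes passed, with medians of -0.0483 and 0.0033. Ddr1, a receptor kinase for collagen, was lower with CHIR99021 by -0.79 ± 0.07 without and -0.76 ± 0.07 with PD0325901. The integrin-associated proteins Cd9 and Cd47 were higher in PD03 than in DMSO by 0.61 ± 0.04 and 0.58 ± 0.07. Of 18 matrix proteases and inhibitors, 8 passed in PD03 minus DMSO (6 higher, 2 lower) and 7 in 2i minus PD03, all 7 lower (1 higher and 7 lower with arrays centred on the median), where 16.8% and 19.5% of all genes passed. The medians of these 18 were 0.074 and -0.0526, against 0.0045 and 0.009 over all genes. Mmp2, a gelatinase that cleaves type IV collagen, was lower in 2i than in DMSO by -0.83 ± 0.04 and lower again in 2iLIF than in 2i (-0.52 ± 0.04). Its membrane-bound activator Mmp14 was higher in PD03 than in DMSO (0.43 ± 0.05).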

How the data were processed

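RNA was measured on 15 arrays, 3 in each of 5 groups, grouped by their labels. The authors deposited log2 values per probe set made with RMA, per the submitters' processing notes; the sources used here give neither its version nor the array's genome build. Quantile normalization, part of RMA, hides a change shared by most genes. Of 34760 probe sets, 21640 carried exactly 1 symbol in the platform annotation. The set with the highest mean over 15 arrays stood for a gene.

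Group means were estimated over the 15 arrays jointly, using limma 3.58.1 (lmFit, eBayes) in R 4.3.3, two-sided, with Benjamini-Hochberg adjustment over 19937 genes, and tested on simulated data. Residual degrees of freedom were 10, and the median SE was 0.0509 (0.072 for the interaction). The members and lists were chosen with earlier results of these data known. Values per array are given for up to 6 higher and 6 lower members per comparison and for the main basement membrane genes and receptors, and list genes are the up to 4 largest calls. Gene lists and motifs are descriptions. No proteins were used here.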

Additional observations from a re-analysis of the deposited data

Results flagged for a closer look

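The effect of CHIR99021 differed with PD0325901, by the interaction of the limma fit, for 4 alpha chains. The term, (2i minus PD03) minus (CHIR minus DMSO), was -0.98 for Itga1, -0.54 for Itga9, -0.28 for Itga5 and 0.61 for Itga3 on the log2 scale. For Itga1 and Itga9 both effects were above 0 and the one with PD0325901 was smaller, and for Itga9 that one, 0.13, did not pass. For Itga3 both were below 0 and the one with PD0325901 was smaller in size. For Itga5 both were below 0 and the one with PD0325901 was larger in size. The PD03 mean of Itga1, 5.65, lies where a value may be background, which bears on its term. The terms of Itga1, Itga9 and Itga3 passed under all 24 alternatives, and that of Itga5 was lost in 13 of 24.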

How the results depend on the processing

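Every member's differences were recomputed under 24 alternatives: each array left out in turn, 2 other normalizations, 2 other moderations or weights, the arrays of the groups compared alone, 2 other choices of probe sets, a filter on low values, and the replicate number as a block. Of 8344 recomputed member differences 120 lost a call and 90 gained one. None that passed in the main fit or in the alternative changed sign, and sign changes of differences that passed in neither were not counted. Of 78 member calls 56 were kept under every alternative and 10 were lost under 5 or more. Several alternatives left a member's log2 difference as it was and could change only its adjusted p. Among these were the choices of probe sets (each member has 1), the filter, the trend and robust moderation, and leaving out an array of a group not compared. The count of members called stayed within 1.5 times its value throughout. Leaving out 1 array gave 7 to 11 in CHIR minus DMSO, 14 to 17 in PD03 minus DMSO, 15 to 18 in 2i minus DMSO, 10 to 13 in 2i minus CHIR, 9 to 12 in 2i minus PD03, 3 to 5 in the interaction and 7 to 9 in 2iLIF minus 2i.

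The replicate numbers showed no clear pairing of the samples: deviations of same-numbered arrays correlated at -0.3644 to 0.3406, with 10 of 30 pairs over 0.1, and 6 of 15 arrays lay closest to their own number. Differently numbered arrays of different groups correlated at -0.4317 to 0.4434. Whether a batch or another order links them was not tested. With the replicate block the counts, in the order above, were 10, 17, 17, 12, 9, 3 and 10. The 3 arrays per group limit the precision, and no detection calls were used. Of 1848 recomputed list counts 144 moved by over 1.5 times.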
